A study of Mus musculus with 30 samples.

Results

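Multidrug efflux ABC transporters are membrane proteins that use ATP to move drugs, toxins and conjugated metabolites out of the cell. The RNA of 7 of them was followed here, listed by gene symbol. They were Abcc1, Abcc3, Abcc4 and Abcc5 of the ABCC subfamily, Abcb1a and Abcb1b of the ABCB subfamily, and Abcg2. The list was made with earlier results of these data known, so the choice was not blind to them. They are 7 of the 29861 genes in the deposited table, and all 7 reached the level set for testing, at least 1 TPM in at least 3 libraries. TPM is a level corrected for transcript length and scaled to the same total in every library, so it can be compared between genes. Abcb1a was below 1 TPM in every DMSO library and reached that level only in treated ones.

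The cells, line CCG-HTA-1, were primary fibroblasts from tails of UMHet3 mice. These mice are a stock of mixed genetic background, and the line was at passage 4. They grew in high-glucose medium lacking pyruvate, with 10% FCS, at ambient oxygen, and their RNA was collected 48 hours after a compound was added. Of the 8 compounds, Antimycin A and Dihydrorotenone block the mitochondrial respiratory chain and Diphenyleneiodonium Cl blocks flavin-containing enzymes. Cardamonin is a plant chalcone, Clofilium tosylate blocks potassium channels, Podofilox binds tubulin, and the remaining compounds were BerberineA and AEG 3482, a code name. Each compound had 3 libraries and the solvent control, DMSO, had 6, and the labels gave no dose. All libraries came from this 1 line, so replicates were cultures or libraries and not animals, and p-values measure the spread between such libraries alone. Donor mice were 5 to 8 weeks old per the labels, except for Dihydrorotenone replicate 1, labelled 8 to 11 weeks. Whether that library had the same donors as the rest is not known here. Library numbers ran consecutively within each group, and the labels do not say what the numbers record. Any effect that followed their order cannot be told apart from group.

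Between 12229 and 12700 genes reached 1 TPM per library, and libraries of a group correlated at 0.991 to 0.995. TPM values hold no record of how deeply each library was sequenced, so that depth is unknown. All 10 fibroblast markers were at 1 TPM or more in every group. Their summed level was 12012 to 14108 TPM in DMSO, 11420 to 13238 in AEG 3482 and 4810 to 6735 in Cardamonin. It was 7249 to 8458 TPM in Antimycin A and lay between 9203 and 11846 TPM in the other 5 compounds, so that every group except AEG 3482 was wholly below DMSO. Among endothelial markers Cdh5, Cldn5 and Emcn stayed below 0.05 TPM, and all 6 epithelial markers stayed below 1 TPM, while Tek, another endothelial marker, had a median of 5.94 TPM. Immune markers summed to 25.2 to 29.9 TPM in DMSO, 28.8 to 45.1 TPM in Cardamonin and 17.5 to 27.8 TPM in the other 7 compounds. Cd68 was the highest, and the macrophage markers Adgre1 and Csf1r had medians of 5.44 and 2.07 TPM over all libraries, while Cd3e was at or near 0 and Ptprc did not exceed 0.876 TPM. The part of these shifts in the transporter values was not tested. In bulk RNA, fewer cells of a type and less RNA per cell cannot be told apart.

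The ABCC transporters, also called multidrug resistance proteins, export organic anions, many of them conjugated to glutathione, glucuronate or sulphate by detoxifying enzymes. P-glycoprotein, encoded in mice by the neighbouring genes Abcb1a and Abcb1b, pumps bulky hydrophobic drugs, and Abcg2, the breast cancer resistance protein, exports a further range of drugs, porphyrins and urate. Several of these genes are known targets of NRF2, the transcription factor that raises antioxidant and detoxifying genes when its inhibitor KEAP1 is modified, and the study's title asks which stress-resistance pathways depend on it. NRF2 with a small MAF partner binds the antioxidant response element.

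Promoter sequences from RefSeq (GRCm38.p6), covering 250 bases before to 50 bases after a start site, were found for 5 of the 7 genes, in 8 entries, with none for Abcc1 and Abcc3. They were searched on both strands for the antioxidant response element core TGACNNNGC, the AP-1 site TGANTCA, the xenobiotic response element core GCGTG, the CCAAT box, the GC box GGGCGG and the cyclic AMP response element TGACGTCA. Among 32817 RefSeq promoters of this length, 12.4% held the antioxidant core, 7.81% the AP-1 site, 32.4% GCGTG, 37.4% CCAAT, 35.6% the GC box and 1.79% TGACGTCA. The antioxidant core overlaps the AP-1 site where both can be read. The sequences shown are the upstream bases of Abcc4 and Abcb1b, genes with unlike responses to AEG 3482, and the stretch of Abcb1a that holds its only match, each 5′ to 3′ on the strand of the gene with every match in capitals.
Abcc4: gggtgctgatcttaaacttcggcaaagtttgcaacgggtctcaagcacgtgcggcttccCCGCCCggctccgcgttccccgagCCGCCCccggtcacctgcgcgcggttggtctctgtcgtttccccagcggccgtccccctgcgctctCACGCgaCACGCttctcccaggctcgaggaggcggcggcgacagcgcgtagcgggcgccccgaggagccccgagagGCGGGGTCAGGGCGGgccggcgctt
Abcb1b: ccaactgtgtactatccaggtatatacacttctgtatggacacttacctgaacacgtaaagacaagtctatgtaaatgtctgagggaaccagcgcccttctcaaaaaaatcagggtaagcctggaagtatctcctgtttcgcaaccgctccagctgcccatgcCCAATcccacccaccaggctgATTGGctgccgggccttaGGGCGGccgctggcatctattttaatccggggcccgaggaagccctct
Abcb1a: ctctttgtccGCGGAGTCAgacagaacaag

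The Abcc4 stretch is chr14:118706220-118706469 on the minus strand. Its antioxidant core, read on the opposite strand as GCGGGGTCA, starts 25 bases before the start site and directly adjoins 1 of its 3 GC boxes. This stretch also held 2 xenobiotic response element cores, read on the opposite strand as CACGC. The Abcb1b stretch, chr5:8797897-8798146 on the plus strand, held 2 CCAAT boxes and 1 GC box and no antioxidant core. The Abcb1a stretch is chr5:8567107-8567136 on the plus strand, and its core GCGGAGTCA begins 27 bases into the transcript. This RefSeq start lies 92986 bases before the start of Abcb1a in GENCODE. RefSeq lists a further, internal Abcc4 start 29288 bases downstream, with the antioxidant core TGACTCTGC 23 bases before it. The Abcc5 entry and Abcg2 entry 1 held no match. Abcg2 entry 2 held GC boxes and a CCAAT box, and entry 3 held GC boxes, GCGTG and TGACGTCA. No Abcg2 entry held the antioxidant core. Abcc4 and Abcb1b were shown for their unlike responses, so the pair does not test the motif. A match is a run of letters, not a bound site, and a promoter without a match says nothing of the factor.

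Cardamonin and AEG 3482 raised the glutathione-conjugate exporter Abcc1 and the organic anion and cyclic nucleotide exporter Abcc4 to between 5.76 and 10.1 times their DMSO means. Cardamonin also raised Abcc3 and both P-glycoprotein genes, the rare Abcb1a to 11.9 times its DMSO mean, none of which passed the test with AEG 3482. AEG 3482 lowered Abcc5 and Abcg2, and Podofilox lowered Abcg2 and raised Abcb1a, Abcc1 and Abcc4 by less. The other 5 compounds moved no transporter by as much as 2-fold on the log2(TPM + 1) scale, although Antimycin A brought Abcb1a to 2.58 times its DMSO mean in TPM.

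**Figure D1:**
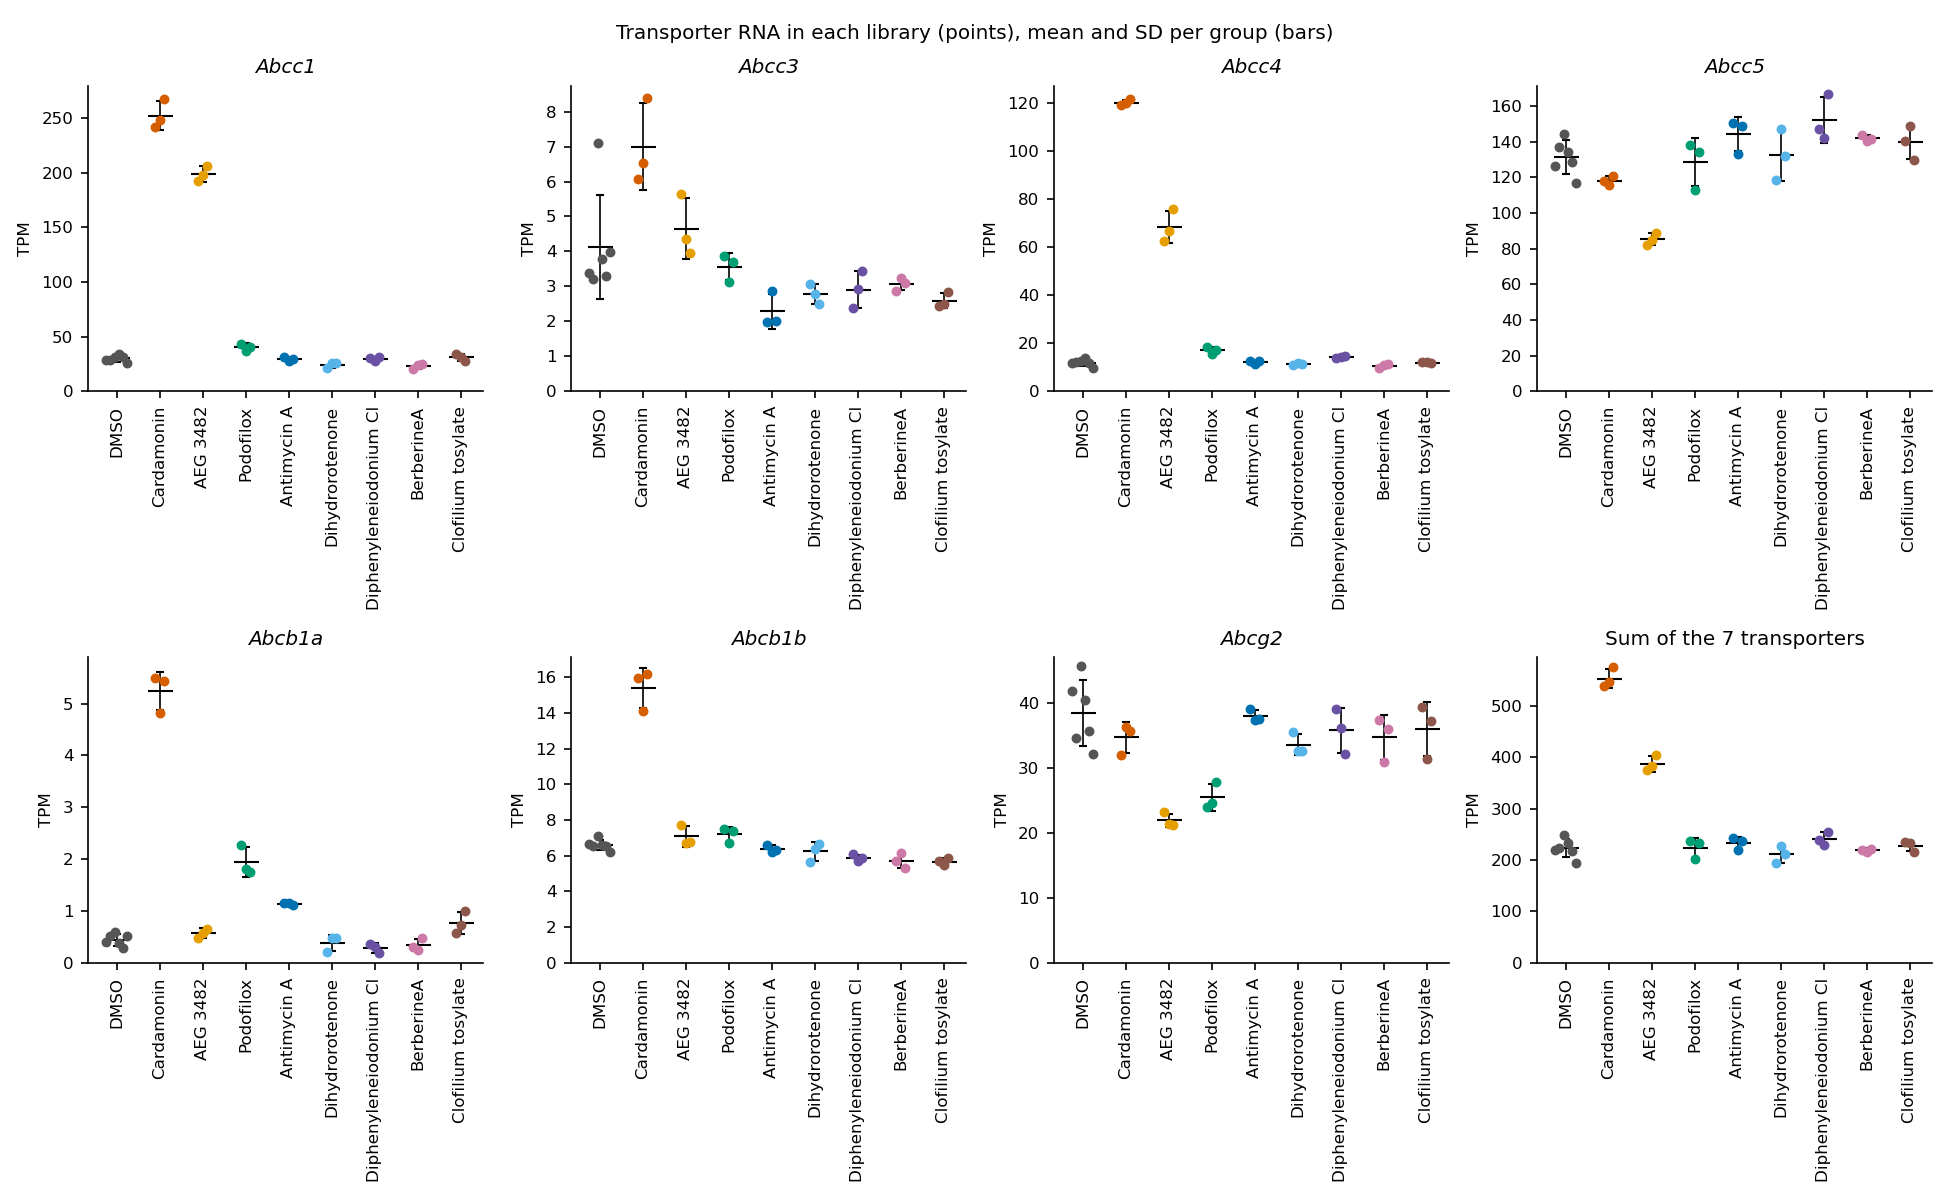
TPM of each transporter and of their sum (vertical axes, TPM) in the 9 groups (horizontal axes); points are libraries and bars the mean and SD, with 3 libraries per compound and 6 for DMSO. Cardamonin and AEG 3482 stand above every other group for Abcc1 and Abcc4, and Cardamonin alone lies far above the rest for Abcb1a and Abcb1b.

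Levels were compared with limma on log2(TPM + 1), with all 30 libraries in 1 fit and Benjamini-Hochberg adjustment over the 13644 genes tested. A gene counted as changed at an adjusted p below 0.05. Over all genes, 70.3% changed with Cardamonin, 37.3% upward, and 5 of the 7 transporters did, all upward. AEG 3482 raised 2 of 7 and lowered 2, while of all genes 68.1% changed, 41.3% upward and 26.8% downward. Podofilox raised 3 of 7 and lowered 1, against 46.2% of all genes changed, 26.2% upward and 20% downward. Antimycin A raised 1 of 7 and lowered 1, against 37.3% changed, 21.8% upward and 15.5% downward. Clofilium tosylate raised 1 of 7 and lowered 2, against 23.4% changed, 10.9% upward and 12.5% downward. Diphenyleneiodonium Cl raised 2 of 7, against 25.7% changed and 14% upward. BerberineA lowered 2 of 7, against 21.7% changed and 9.16% downward, and Dihydrorotenone lowered 1 of 7, against 14.4% changed and 9.43% downward. Abcb1a entered the test only through Antimycin A, Cardamonin and Podofilox, the groups where it was high, so it had to differ there, and counts and medians that include it are descriptions alone. In all, 23 of the 56 gene and compound pairs passed the test. Abcb1a pairs are among them, so this count too is a description alone. The share of all genes that changed ran from 14.4% with Dihydrorotenone to 70.3% with Cardamonin.

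Changes of at least 2-fold on the same scale, a rule added after the values were seen, were found with Cardamonin for Abcc1, Abcc4, Abcb1a and Abcb1b, with AEG 3482 for Abcc1 and Abcc4, and with Podofilox for Abcb1a. Of all genes, 14.5%, 10.4% and 3.31% passed with these compounds in turn, and the Abcb1a changes are not read against those shares. For the other 5 compounds none of the 7 passed both conditions, and of all genes 2.39% did with Antimycin A, 0.191% with Dihydrorotenone, 1.04% with Diphenyleneiodonium Cl, 0.638% with BerberineA and 0.726% with Clofilium tosylate. The median change of the 7 was 1.11 with Cardamonin, where the median over all genes was 0.03, and 0.12 with AEG 3482, where it was 0.10. Scaling libraries by median ratios brought the median over all genes to -0.00 for Cardamonin and -0.01 for AEG 3482 and reversed no transporter.

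**Figure D2:**
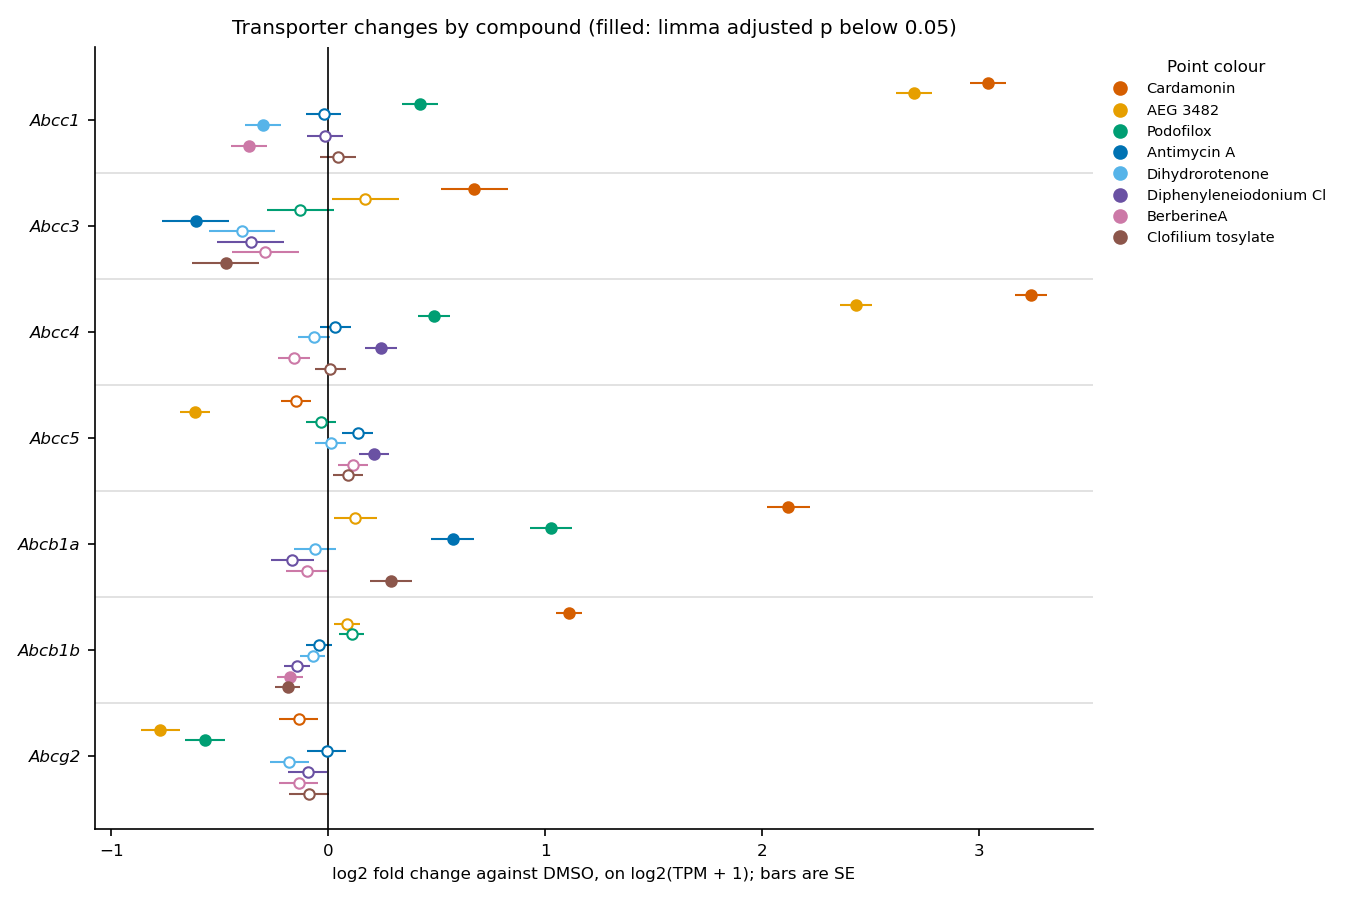
Log2 fold change against DMSO on log2(TPM + 1) (horizontal axis) for the 7 transporters (vertical axis) with each compound (colours); bars are SE and filled points have a limma adjusted p below 0.05. Abcc1 and Abcc4 lie between 2.43 and 3.24 with Cardamonin and AEG 3482, and most other points lie within 1 unit of zero.

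Abcc1, or MRP1, exports glutathione conjugates and oxidised glutathione (ENSMUSG00000023088, chromosome 16, 14361558 to 14475737, plus strand, GRCm38). Its level in DMSO was 25.5 TPM at the lowest, 30.0 TPM at the median and 34.0 TPM at the highest. With Cardamonin it was 242, 249 and 267 TPM, and with AEG 3482 it was 192, 198 and 207 TPM. Both treated sets lay far above every DMSO library and did not overlap each other. Abcc1 rose by 3.04 ± 0.08 (log2, SE; limma adjusted p = 1.01e-20) with Cardamonin and by 2.70 ± 0.08 (limma adjusted p = 2.00e-19) with AEG 3482, which are 8.43 and 6.65 times the DMSO mean.

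With Podofilox Abcc1 stood at 43.6, 36.8 and 40.6 TPM, also above all DMSO libraries, a rise of 0.42 ± 0.08 (limma adjusted p = 1.57e-04). BerberineA gave 20.4, 23.8 and 24.8 TPM, all below the lowest DMSO library, and Abcc1 fell by 0.37 on the log2 scale (SE 0.08, limma adjusted p = 0.00187). Dihydrorotenone gave 20.8, 25.8 and 25.8 TPM, partly within the DMSO range, and a change of -0.30 ± 0.08 (limma adjusted p = 0.0153). That call was lost without Dihydrorotenone replicate 1, the library with the other donor age label, at -0.20 with limma adjusted p = 0.172. Antimycin A, Diphenyleneiodonium Cl and Clofilium tosylate had means of 29.4, 29.5 and 30.8 TPM, inside the DMSO spread.

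Abcc4, or MRP4, exports cyclic nucleotides, prostaglandins and drug conjugates (ENSMUSG00000032849, chromosome 14, 118482692 to 118706219, minus strand, GRCm38). DMSO libraries ran from 9.57 through a median of 11.9 to 13.8 TPM. Cardamonin libraries were at 119, 120.0 and 122 TPM and AEG 3482 libraries at 62.8, 66.9 and 76.0 TPM. The Cardamonin values were 10.1 times the DMSO mean with an SD of 1.24 TPM, and the AEG 3482 values 5.76 times. Abcc4 rose by 3.24 ± 0.07 (limma adjusted p = 2.72e-22) and by 2.43 ± 0.07 (limma adjusted p = 1.38e-19) respectively.

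Podofilox raised Abcc4 to 18.2, 15.7 and 17.1 TPM, above every DMSO library, a log2 change of 0.49 ± 0.07 (limma adjusted p = 5.23e-06). Diphenyleneiodonium Cl gave 13.8, 14.3 and 14.5 TPM, of which the lowest lay within the DMSO range and the others just above it, with a change of 0.24 ± 0.07 (limma adjusted p = 0.0163). That call was lost without Diphenyleneiodonium Cl replicate 2 (0.24, limma adjusted p = 0.0572) or replicate 3 (0.23, limma adjusted p = 0.0688). Abcc4 means with the remaining 4 compounds were between 10.5 and 12.1 TPM, against 11.9 ± 1.37 TPM (SD, n = 6) in DMSO. The BerberineA change did not pass (-0.16 ± 0.07, limma adjusted p = 0.136). It passed with median-ratio scaling (-0.18, limma adjusted p = 0.0367), quantile normalization (-0.19, limma adjusted p = 0.0218) and without DMSO replicate 6 (-0.21, limma adjusted p = 0.0140).

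Abcc3, or MRP3, exports glucuronide conjugates and bile acids (ENSMUSG00000020865, chromosome 11, 94343295 to 94392997, minus strand, GRCm38). It was low in these cells, at 3.21 TPM at the lowest, 3.59 TPM at the median and 7.10 TPM at the highest in DMSO. The 7.10 TPM came from DMSO replicate 3, and the other 5 DMSO libraries lay at or below 3.98 TPM. Cardamonin libraries had 6.08, 6.52 and 8.40 TPM, all above those 5, and 1 of the 3 also above replicate 3. The change was 0.67 ± 0.15 (limma adjusted p = 3.73e-04), and 0.81 (limma adjusted p = 6.93e-07) without that DMSO library.

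Antimycin A gave the lowest Abcc3 values, 1.97, 2.86 and 2.02 TPM, under every DMSO library. The change was -0.61 ± 0.15 (limma adjusted p = 0.00244), and -0.47 (limma adjusted p = 0.00184) without DMSO replicate 3. Clofilium tosylate gave 2.43, 2.50 and 2.84 TPM, also under every DMSO library, with a change of -0.47 ± 0.15 (limma adjusted p = 0.0258). The Clofilium tosylate call was lost without its replicate 1 (-0.44, limma adjusted p = 0.0887) or replicate 2 (-0.46, limma adjusted p = 0.0896). AEG 3482 gave 5.63, 4.36 and 3.96 TPM and did not pass (0.17 ± 0.15, limma adjusted p = 0.335), but passed without DMSO replicate 3 (0.31, limma adjusted p = 0.0184). Dihydrorotenone gave 3.06, 2.79 and 2.51 TPM, also under every DMSO library, and did not pass (-0.40 ± 0.15, limma adjusted p = 0.0850). It passed with array quality weights (-0.41, limma adjusted p = 0.0416).

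Abcc5, or MRP5, exports cyclic nucleotides and nucleotide analogues (ENSMUSG00000022822, chromosome 16, 20331303 to 20426394, minus strand, GRCm38). It was the most abundant of the 7 in DMSO, with 117 TPM at the lowest, 132 TPM at the median and 144 TPM at the highest. AEG 3482 libraries had 82.0, 85.0 and 88.8 TPM, all below the DMSO range. Abcc5 fell by 0.62 on the log2 scale with AEG 3482 (SE 0.07, limma adjusted p = 2.85e-08).

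Cardamonin libraries stood at 118, 116 and 121 TPM, at the lower edge of the DMSO range. The change, -0.15 ± 0.07, did not pass (limma adjusted p = 0.0641), while it passed with libraries scaled by median ratios (-0.19, limma adjusted p = 0.00466) and without DMSO replicate 6 (-0.18, limma adjusted p = 0.0232), and also without Dihydrorotenone replicate 1 (limma adjusted p = 0.0498) or Podofilox replicate 2 (limma adjusted p = 0.0448). Diphenyleneiodonium Cl gave 147, 142 and 167 TPM and a change of 0.21 ± 0.07 (limma adjusted p = 0.0297). It was lost without its replicate 3 (0.14, limma adjusted p = 0.230), without DMSO replicate 1 (0.20, limma adjusted p = 0.0515) or without DMSO replicate 6 (0.18, limma adjusted p = 0.0630). Abcc5 means with the other 5 compounds were 128 to 144 TPM and overlapped DMSO.

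Abcb1a and Abcb1b lie next to each other on chromosome 5, with Abcb4, a phosphatidylcholine transporter of the same subfamily, after them. Abcb1a (ENSMUSG00000040584) spans 8660077 to 8748575 and Abcb1b (ENSMUSG00000028970) spans 8798147 to 8866315, both on the plus strand of GRCm38. Their transcripts share sequence: 21.7% of the 31-base words of Abcb1a also occur in Abcb1b, and 14.8% of those of Abcb1b occur in Abcb1a, so the authors' quantification could split some reads between them. For the other 5 transporters, between 0% and 2.76% of such words occurred in any other gene.

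Abcb1a was the rarest of the 7 in DMSO, at 0.279 TPM at the lowest, 0.448 TPM at the median and 0.587 TPM at the highest. Cardamonin brought it to 5.49, 4.82 and 5.44 TPM, 11.9 times the DMSO mean. The change on the log2(TPM + 1) scale, which understates low genes, was 2.12 ± 0.10 (limma adjusted p = 3.88e-16). Podofilox brought it to 2.27, 1.80 and 1.74 TPM, 4.40 times the DMSO mean, a change of 1.03 ± 0.10 (limma adjusted p = 3.41e-09). The latter fell under 2-fold without Podofilox replicate 1 (0.95, limma adjusted p = 2.42e-07) or without DMSO replicate 5 (0.99, limma adjusted p = 1.31e-08).

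Antimycin A libraries clustered tightly at 1.15, 1.15 and 1.11 TPM for Abcb1a, above every DMSO library, with a change of 0.57 ± 0.10 (limma adjusted p = 4.12e-05). Clofilium tosylate gave 0.578, 0.718 and 0.997 TPM, overlapping DMSO, with a change of 0.29 ± 0.10 (limma adjusted p = 0.0327). The Clofilium tosylate call was lost on leaving out its replicate 2 or 3 or DMSO replicate 1, 4 or 5, with limma adjusted p from 0.0521 to 0.234. AEG 3482 gave 0.471, 0.580 and 0.653 TPM for Abcb1a and did not pass (0.12 ± 0.10, limma adjusted p = 0.267), though it did after quantile normalization (0.33, limma adjusted p = 0.00642). Dihydrorotenone, BerberineA and Diphenyleneiodonium Cl had means of 0.383, 0.344 and 0.283 TPM and did not pass.

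Abcb1b ran from 6.22 through 6.57 to 7.09 TPM in DMSO (lowest, median, highest). Cardamonin libraries had 15.9, 14.1 and 16.2 TPM, 2.33 times the DMSO mean, and Abcb1b rose by 1.11 ± 0.06 (limma adjusted p = 7.63e-15). Podofilox gave 7.48, 6.69 and 7.41 TPM and AEG 3482 gave 7.74, 6.73 and 6.78 TPM, both overlapping DMSO and neither past the test. The change with Podofilox was 0.11 (95% interval -0.02 to 0.23) and with AEG 3482 it was 0.09 (-0.04 to 0.21).

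BerberineA gave 5.70, 6.15 and 5.33 TPM and Clofilium tosylate 5.68, 5.49 and 5.85 TPM for Abcb1b, each set just under the lowest DMSO library. Abcb1b fell by 0.18 on the log2 scale with BerberineA (SE 0.06, limma adjusted p = 0.0310) and by 0.19 with Clofilium tosylate (SE 0.06, limma adjusted p = 0.0215). The first was lost without BerberineA replicate 1 (limma adjusted p = 0.0768) or replicate 3 (limma adjusted p = 0.193) or DMSO replicate 3 (limma adjusted p = 0.0622). The second was lost without Clofilium tosylate replicate 1 (limma adjusted p = 0.0585) or replicate 2 (limma adjusted p = 0.102). Diphenyleneiodonium Cl libraries, at 6.07, 5.68 and 5.86 TPM, also lay under every DMSO library. That change did not pass in the main fit (-0.15, limma adjusted p = 0.0721). It did with median-ratio scaling, quantile normalization, array quality weights and scaling without the 20 most abundant genes.

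The share of Abcb1a in the summed TPM of the P-glycoprotein pair shows how unevenly the 2 genes moved. In DMSO it was 6.23% ± 1.45 (SD, n = 6). It was 25.4% ± 0.249 with Cardamonin, 21.2% ± 2.12 with Podofilox, 15.1% ± 0.474 with Antimycin A and 11.8% ± 2.67 with Clofilium tosylate (n = 3 each). AEG 3482 left it at 7.49% ± 1.58. Added together, the pair changed by 1.43 with Cardamonin (limma adjusted p = 6.03e-17) and by 0.33 with Podofilox (limma adjusted p = 6.16e-05), while with Antimycin A the value was 0.08 and did not pass (limma adjusted p = 0.314). The sum fell by 0.17 on the log2 scale with Diphenyleneiodonium Cl (limma adjusted p = 0.0402), where neither gene passed alone, and by 0.19 with BerberineA (limma adjusted p = 0.0269).

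**Figure D3:**
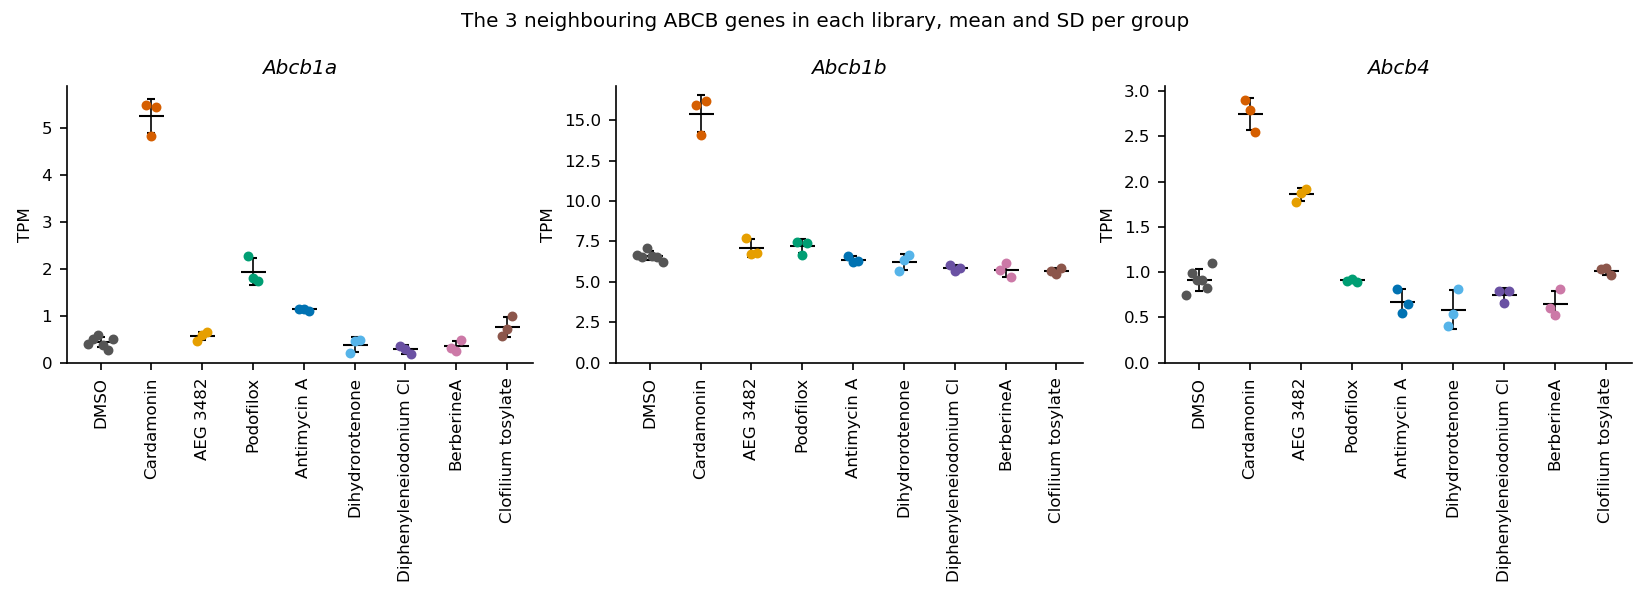
TPM (vertical axes, starting at 0) of the 3 neighbouring ABCB genes in the 9 groups (horizontal axes); points are libraries and bars the mean and SD. All 3 are highest with Cardamonin, AEG 3482 stands apart from DMSO for Abcb4, and Podofilox stands apart for Abcb1a.

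Abcb4 (8893717 to 8959231, plus strand) went from a mean of 0.914 TPM in DMSO to 2.75 TPM with Cardamonin, a change of 0.97 ± 0.09 (limma adjusted p = 1.62e-10). It also rose with AEG 3482, to 1.86 TPM (0.58 ± 0.09, limma adjusted p = 1.46e-06), where neither P-glycoprotein gene passed. With Podofilox, which raised Abcb1a, Abcb4 stood at 0.908 TPM and did not pass (limma adjusted p = 0.986). It fell by 0.28 on the log2 scale with Dihydrorotenone (limma adjusted p = 0.0292).

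Abcg2 (ENSMUSG00000029802, chromosome 6, 58584523 to 58695676, plus strand, GRCm38) had 32.1 TPM at the lowest, 38.1 TPM at the median and 45.7 TPM at the highest in DMSO. No compound raised it past the test. AEG 3482 libraries were at 23.1, 21.3 and 21.2 TPM and Podofilox libraries at 23.9, 24.6 and 27.8 TPM, every one below the DMSO range. Abcg2 fell by 0.77 on the log2 scale with AEG 3482 (SE 0.09, limma adjusted p = 3.38e-08) and by 0.57 with Podofilox (SE 0.09, limma adjusted p = 1.02e-05). Cardamonin libraries, at 32.0, 36.3 and 35.6 TPM, overlapped the lower DMSO values (-0.14 ± 0.09, limma adjusted p = 0.182). This change passed after quantile normalization (-0.22, limma adjusted p = 0.0405) and with array quality weights (-0.20, limma adjusted p = 0.0335). Means with the other 5 compounds were 33.6 to 37.9 TPM. Of these, the BerberineA change did not pass (-0.14 ± 0.09, limma adjusted p = 0.315) but did with array quality weights (-0.25, limma adjusted p = 0.0129).

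The order of the groups was clear only at its ends. For Abcc1 and Abcc4 it ran Cardamonin, AEG 3482, Podofilox and then the rest, and each step down to Podofilox, and from Podofilox to the next group, passed the test between neighbours. The shares of all genes that differed in these steps were 60.3% for AEG 3482 against Podofilox, 39.1% for Podofilox against Clofilium tosylate and 42.7% for Podofilox against Diphenyleneiodonium Cl. Below Podofilox, neighbouring groups did not differ past the test except that Antimycin A exceeded Dihydrorotenone for Abcc1 (limma adjusted p = 0.0494). For Abcb1a the order was Cardamonin, Podofilox, Antimycin A and Clofilium tosylate, where the steps down to Antimycin A passed (41.4% of all genes differed between Podofilox and Antimycin A). The step from Antimycin A to Clofilium tosylate did not (0.28, 95% interval 0.05 to 0.52, limma adjusted p = 0.159). Since Abcb1a entered the test only through Cardamonin, Podofilox and Antimycin A, its order and steps are descriptions alone. For Abcb1b only the step from Cardamonin to Podofilox passed, for Abcc3 only that from Cardamonin to AEG 3482, and for Abcc5 only that from Cardamonin to AEG 3482 at the bottom. For Abcg2 the step from Dihydrorotenone down to Podofilox passed (limma adjusted p = 0.00336, with 45.2% of all genes differing), while Podofilox and AEG 3482, the lowest, did not differ past the test (limma adjusted p = 0.0907).

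Together the 7 transporters summed to 223 ± 17.8 TPM in DMSO (SD, n = 6), 553 ± 19.3 TPM with Cardamonin and 387 ± 15.4 TPM with AEG 3482 (n = 3 each). With the other 6 compounds the mean sum was between 211 and 241 TPM, within the range of single DMSO libraries, 194.8 to 248.4 TPM. Single libraries of these compounds ran from 194.6 TPM (Dihydrorotenone) to 254.4 TPM (Diphenyleneiodonium Cl), slightly beyond that range. The makeup of the sum changed as well. Abcc5 made up 59.0% of it in DMSO, 21.4% with Cardamonin and 22.0% with AEG 3482, while Abcc1 went from 13.4% to 45.6% and 51.4% and Abcc4 from 5.34% to 21.8% and 17.7%. Podofilox kept the sum at 224 TPM, with Abcc1 at 18.0%, Abcc4 at 7.60% and Abcc5 at 57.3%.

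**Figure D4:**
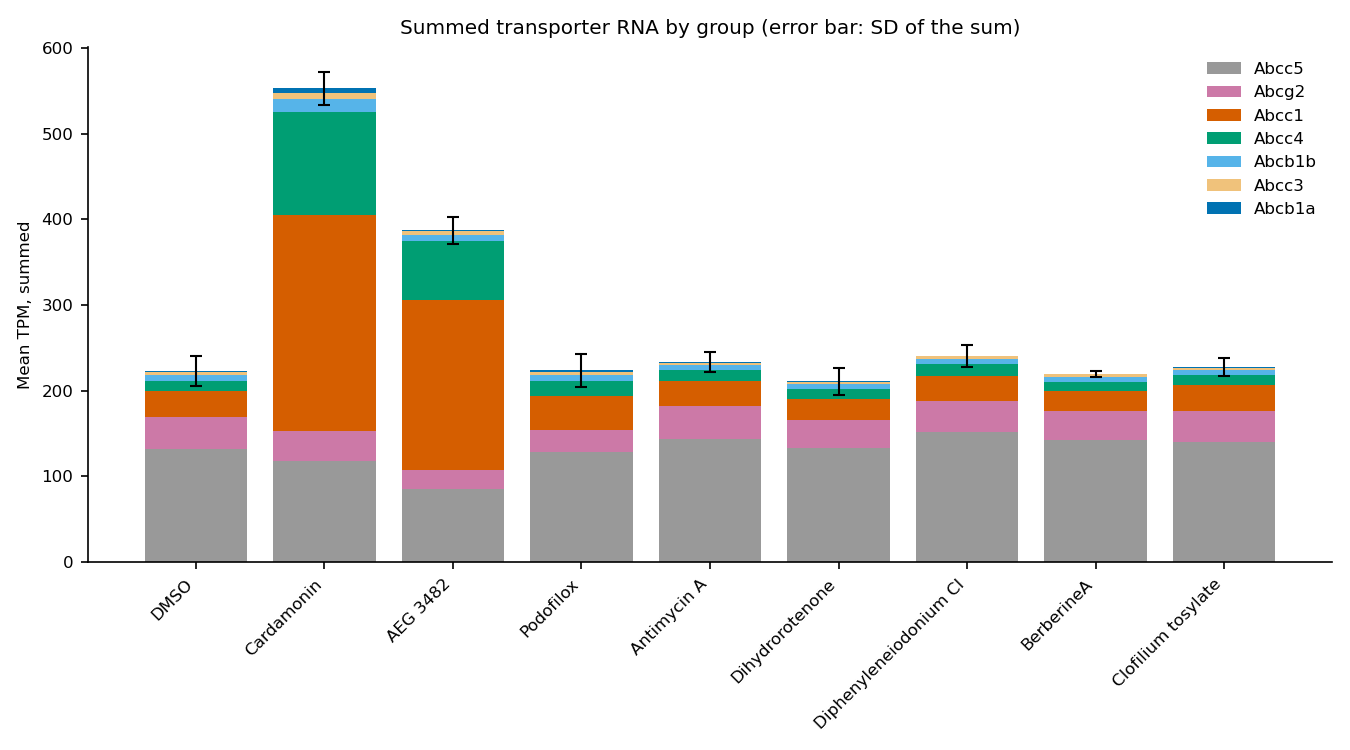
Mean TPM of the 7 transporters stacked by group (vertical axis, TPM, starting at 0); error bars are the SD of the sum. Abcc5 is the largest block in DMSO, and Abcc1 is the largest with Cardamonin and AEG 3482, where the sums reach 553 and 387 TPM.

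Because a gene past the test with 1 compound and not with another is not thereby different between them, 3 pairs of compounds were set against each other directly. Doses are unknown, so these compare treatments as given. Cardamonin exceeded AEG 3482 for all 7 transporters, while 55.3% of all genes differed between these groups and 22.6% were higher with Cardamonin. Abcb1a differed by 1.99 (95% interval 1.76 to 2.23, limma adjusted p = 1.56e-13). It entered the test through Cardamonin and not AEG 3482 libraries, so this value and the count of 7 are descriptions alone. The differences among the rest were largest for Abcb1b (1.02, 0.88 to 1.16, limma adjusted p = 3.59e-12). They were 0.81 for Abcc4 (0.63 to 0.98, limma adjusted p = 1.13e-08), 0.64 for Abcg2 (limma adjusted p = 1.03e-05) and 0.47 for Abcc5 (limma adjusted p = 2.74e-05).

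Abcc1 differed least, by 0.34 (0.14 to 0.54, limma adjusted p = 0.00371). The difference in Abcc3, 0.50 (0.14 to 0.87, limma adjusted p = 0.0183), was lost without Cardamonin replicate 3 (0.38, limma adjusted p = 0.107) or AEG 3482 replicate 2 (0.47, limma adjusted p = 0.0549) or replicate 3 (0.41, limma adjusted p = 0.0848).

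Podofilox was lower than Cardamonin for 6 of the 7, against 57.8% of all genes that differed and 28.7% that were lower, from -2.75 for Abcc4 and -2.62 for Abcc1 to -0.43 for Abcg2. The count includes Abcb1a, which entered the test through groups where it was high, these among them, so it is a description alone. Abcc5 did not differ past the test (0.11, 95% interval -0.05 to 0.28, limma adjusted p = 0.241), but did without Podofilox replicate 2 (0.20, limma adjusted p = 0.0444). Between the respiratory chain inhibitors, Antimycin A exceeded Dihydrorotenone for 2 of 7, against 15.5% of all genes that differed and 11.6% that were higher. Abcb1a was higher by 0.63 (0.40 to 0.87, limma adjusted p = 2.81e-04). It entered the test through Antimycin A and not Dihydrorotenone libraries, so this value and the 2 of 7 are descriptions alone. Abcc1 was higher by 0.28 (0.08 to 0.47, limma adjusted p = 0.0494), a call at the edge of the threshold that was lost when any of 19 libraries was left out, among them Dihydrorotenone replicate 1 (0.18, limma adjusted p = 0.282).

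**Figure D5:**
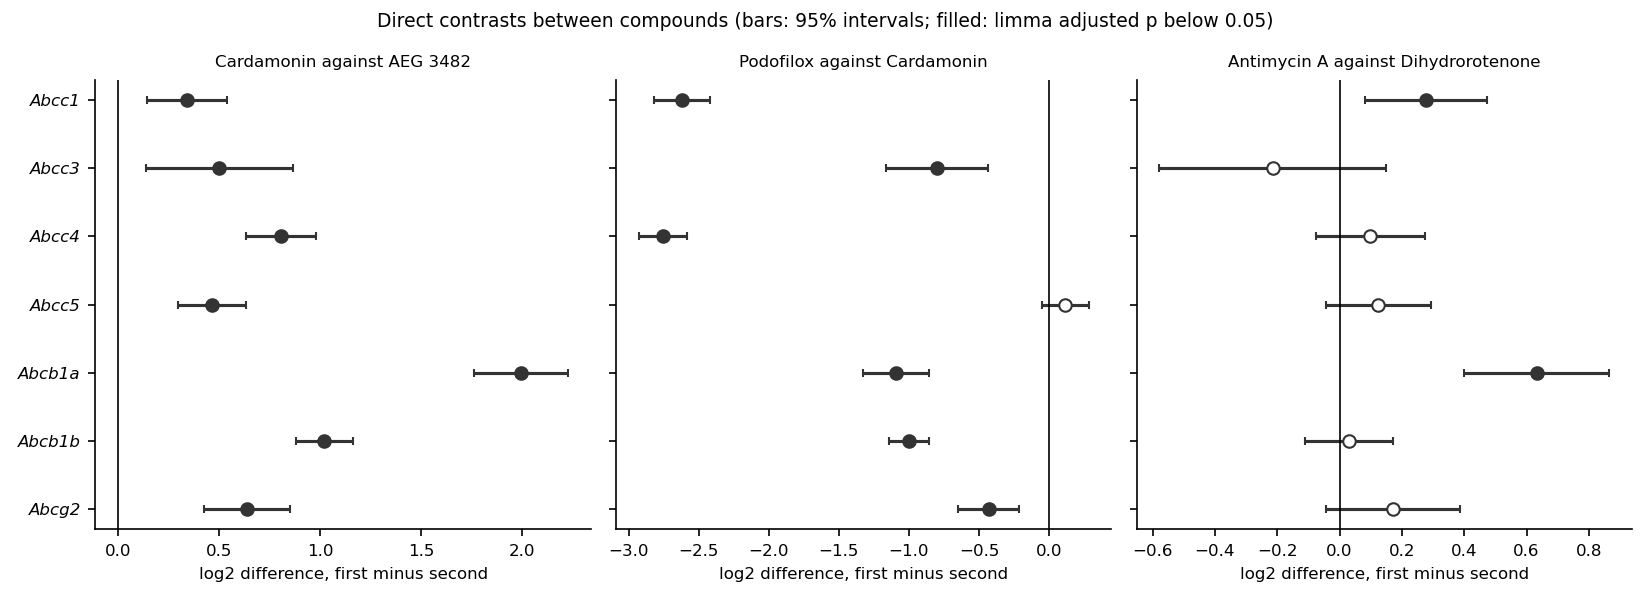
Log2 differences on log2(TPM + 1), first compound minus second (horizontal axes, a separate scale in each panel), for the 7 transporters in 3 direct contrasts; bars are 95% intervals and filled points have a limma adjusted p below 0.05. All 7 points lie above zero for Cardamonin against AEG 3482, and 6 lie below zero for Podofilox against Cardamonin.

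The rest of the ABC superfamily moved in both directions. Of 46 other ABC genes listed, 29 were tested. Cardamonin raised 10 and lowered 12 of the 29, AEG 3482 raised 11 and lowered 13, and Podofilox raised 6 and lowered 10. Those are 75.9%, 82.8% and 55.2% of the 29 in turn, beside 70.3%, 68.1% and 46.2% of all genes. Whether this list or those below differ from all genes was not tested. The median change over the 29 was -0.03, -0.16 and -0.04 in turn. Antimycin A and Diphenyleneiodonium Cl changed 10 each (34.5%, beside 37.3% and 25.7% of all genes). BerberineA and Clofilium tosylate changed 8 each (27.6%, beside 21.7% and 23.4%), and Dihydrorotenone 7 (24.1%, beside 14.4%).

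Abcd4, a lysosomal transporter needed for vitamin B12 handling, rose by 1.68 with Cardamonin and 1.60 with AEG 3482 (limma adjusted p = 5.85e-16 and 2.94e-15), from 12.4 to 42.2 and 39.8 TPM. Abcb6, a porphyrin transporter, rose by 1.56 and 0.91 (limma adjusted p = 7.25e-13 and 2.53e-08). Abca3, a surfactant lipid transporter, rose by 1.31 with AEG 3482 (limma adjusted p = 1.14e-13) and stood at 0.06 with Cardamonin (limma adjusted p = 0.511).

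Abca9 fell from 8.89 TPM in DMSO to 0.677 TPM with Cardamonin, 2.07 TPM with AEG 3482 and 2.58 TPM with Podofilox, changes of -2.56, -1.68 and -1.46 (limma adjusted p = 2.22e-18, 2.14e-14 and 1.66e-12). Abcd2, a peroxisomal fatty acid transporter, fell by 1.47, 1.20 and 0.88 (limma adjusted p = 6.03e-13, 5.06e-11 and 4.50e-08). Abcc2, the apical conjugate exporter MRP2, was not tested, with group means from 0.0236 to 0.0678 TPM.

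The enzymes that make the conjugates were a list of 31 genes, of which 28 were tested. Cardamonin raised 15 and lowered 9, and AEG 3482 raised 14 and lowered 8. Podofilox raised 9 and lowered 12, and Antimycin A raised 12 and lowered 5. The shares changed were 85.7%, 78.6%, 75% and 60.7% in turn, beside 70.3%, 68.1%, 46.2% and 37.3% of all genes. Gclc and Gclm, the subunits of the rate-limiting enzyme of glutathione synthesis, rose by 3.94 and 3.84 with Cardamonin and by 2.78 and 3.19 with AEG 3482 (limma adjusted p = 3.88e-21 or lower). With Podofilox they rose by 0.59 and 1.07 (limma adjusted p = 9.41e-08 and 6.54e-12). The glutathione transferase Gsta2 rose by 6.94 with Cardamonin, from 0.536 to 188 TPM, and Gsta4 by 3.61 with AEG 3482, from 147 to 1788 TPM (limma adjusted p = 2.39e-18 and 2.60e-22). Gstt1, another transferase, fell by 2.64, 1.40 and 0.95 with Cardamonin, AEG 3482 and Podofilox (limma adjusted p = 8.27e-16, 3.91e-10 and 8.20e-07).

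The list of NRF2 targets held 20 genes and left out the efflux transporters followed here. Of these 20, Cardamonin raised 20 and AEG 3482 raised 19, with median changes of 2.39 and 2.13. Podofilox raised 14 and lowered 4. Of all genes, Cardamonin raised 37.3% and AEG 3482 41.3%, and Podofilox raised 26.2% and lowered 20%. Nqo1, a quinone reductase, rose by 3.25 and 2.83 with Cardamonin and AEG 3482 (limma adjusted p = 1.16e-22 and 3.36e-21) and stood at 0.04 with Podofilox (limma adjusted p = 0.640). Among 24 tested regulators, Cardamonin raised 14 and lowered 5, and AEG 3482 raised 12 and lowered 6. That is 79.2% and 75% of the regulators, beside 70.3% and 68.1% of all genes. Nfe2l2, which encodes NRF2, rose by 0.42 and 0.38 (limma adjusted p = 4.22e-10 and 4.23e-09), and Keap1 by 0.69 and 0.75 (limma adjusted p = 2.90e-10 and 7.51e-11). The small MAF partner Mafg rose by 1.27 and 1.43 (limma adjusted p = 1.13e-12 and 1.85e-13). Nr1i2, the pregnane X receptor that controls P-glycoprotein in liver and gut, had group means between 0 and 0.0204 TPM and was not tested.

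Of the 11 listed targets of xenobiotic receptors, 5 were tested, and 4 changed with Cardamonin and 5 with AEG 3482. Of all genes, 70.3% and 68.1% changed with these compounds. Cyp1b1, a cytochrome P450 under the aryl hydrocarbon receptor, fell by 2.41 and 2.69, whereas Aldh3a1, an aldehyde dehydrogenase on the same list, rose by 3.83 and 3.12 (limma adjusted p = 5.66e-15, 1.08e-15, 4.76e-18 and 5.81e-16). BerberineA raised 4 of the 5 and Diphenyleneiodonium Cl 3, Cyp1b1 and Aldh3a1 among them, beside 21.7% and 25.7% of all genes changed. Podofilox raised 1 and lowered 3, beside 46.2%. Antimycin A raised 1, Dihydrorotenone lowered 1 and Clofilium tosylate changed 0, beside 37.3%, 14.4% and 23.4%. Among 9 tested carriers outside the ABC superfamily, Cardamonin raised 1 and lowered 6 and AEG 3482 raised 2 and lowered 4. Those are 77.8% and 66.7% of the carriers, beside 70.3% and 68.1% of all genes. The organic cation and ergothioneine carrier Slc22a4 rose by 2.85 with Cardamonin, 1.68 with AEG 3482 and 0.88 with Podofilox (limma adjusted p = 6.19e-18, 4.93e-13 and 2.01e-07). Slc29a1, a nucleoside carrier, fell by 0.89 with AEG 3482 and by 0.82 with Podofilox (limma adjusted p = 1.81e-13 and 3.97e-12).

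Likeness of pattern was measured as Pearson's r of log2(TPM + 1) over the means of the 9 groups among 10144 genes, which share the same libraries. The gene most like Abcc1 was Hmox1, haem oxygenase 1 (r = 0.998), and the kinase Stk10 was also among the closest (r = 0.998). The gene most like Abcc4 was Gclc (r = 0.997), followed by Ppp1r16a and the kinase Mapk9. For Abcb1a these were Derl1 (r = 0.988), of the endoplasmic reticulum, Sephs2 and Mrps18b, and for Abcb1b they were Atpaf2 (r = 0.988), Lypla1 and Ecel1. Abcc3 was most like Dnm1l (r = 0.980), Ruvbl1 and Kcnk2, Abcc5 most like Orc3 (r = 0.993), Armcx5 and Ncoa1, and Abcg2 most like Ipo11 (r = 0.969), Erlin2 and Nxt2. No 2 transporters shared any of these genes. With only 3 genes taken from 10144 for each, that does not show that their patterns differed.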

How the data were processed

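RNA libraries of 30 cultures were depleted of ribosomal RNA and sequenced, per the labels' protocols. The authors quantified transcripts with kallisto 0.43.1 and summed them per gene, and mm10 was the build named, per the submitters' processing notes and the series text; the transcript index is not given in the sources used here. The deposited table holds TPM made by the authors, 1 column per library, which keep no depth. Listed genes summed to 927024 to 937134 TPM per library. Groups came from each sample's treatment label; the series text gives 5 replicates for DMSO, but 6 libraries carry that label and all were used.

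Of 29861 gene identifiers, 29505 (98.8%) matched GENCODE M21 (GRCm38). Values were taken as log2(TPM + 1), and 13644 genes that reached 1 TPM in 3 or more libraries entered 1 fit of 30 libraries with limma 3.58.1 in R 4.3.3 (1 mean per group, intensity trend, no block). Benjamini-Hochberg adjustment ran over genes within each comparison, threshold 0.05. The fit was tested on simulated data. Besides the 7 transporters, the 3 genes of most similar pattern were named for each (1 of them, and 1 marker, are not reported here), and from each list the called genes with the 2 largest rises and falls and genes with a known tie to a transporter. Members and lists were chosen with earlier results of these data known. Alternatives were other pseudocounts, filters, scalings and fits, the P-glycoprotein pair summed, and each library left out.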

Additional observations from a re-analysis of the deposited data

Results flagged for a closer look

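The Abcc3 level of DMSO replicate 3, 7.10 TPM, stood apart from the other 5 DMSO libraries. Its gap to the next value was 0.803 of the whole range of the group, above Dixon's 95% critical value for 6 libraries. The 7 transporters were each examined this way in DMSO, and chance alone flags about 1 in 20 such sets. The Abcc3 changes with Cardamonin and Antimycin A passed with and without this library, and that with AEG 3482 passed only without it.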

How the results depend on the processing

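Calls were recomputed under 13 alternative settings and with each of the 30 libraries left out; Abcb1a and Abcc3 have no value under the filter at a mean of 5 TPM, and Abcb1a and Abcb1b have none of their own when summed. Of the 23 calls against DMSO, 16 held in each alternative that gave the gene a value, 7 were lost in at least 1, 8 of the 33 pairs not called passed in at least 1, and 0 reversed. The lost ones, all 7 of them lost in fits of only the groups compared, were Abcc1 with Dihydrorotenone, Abcc4 and Abcc5 with Diphenyleneiodonium Cl, Abcb1b with BerberineA, and Abcc3, Abcb1a and Abcb1b with Clofilium tosylate. A filter at a mean of 5 TPM removed Abcb1a and Abcc3 from the fit and left 3 changed transporters with Cardamonin, 0 with Antimycin A, 1 with Clofilium tosylate, and 0 changed 2-fold with Podofilox. Fits of only the groups compared left 0 with Dihydrorotenone, 0 with Diphenyleneiodonium Cl, 1 with BerberineA and 0 with Clofilium tosylate, and 1 and 6 other ABC genes with Dihydrorotenone and Diphenyleneiodonium Cl. Array quality weights gave 2 with Dihydrorotenone. Summing the P-glycoprotein pair left 1 with Antimycin A, 1 with Clofilium tosylate and 0 changed 2-fold with Podofilox. The count of 2 between Antimycin A and Dihydrorotenone was 1 with a pseudocount of 5, no filter, a filter at a mean of 5 TPM, median-ratio scaling, quantile normalization, scaling without the 20 most abundant genes, only the groups compared, no intensity trend, or the pair summed. Counts of 2-fold changes moved with the pseudocount: with 5, 2 transporters for Cardamonin and 0 for Podofilox, and with 0.1, 1 for Antimycin A (Abcb1a, 1.22). Where the construction of the setting does not show the cause, the cause was not tested.

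With replicate number as a block, Diphenyleneiodonium Cl changed 1 transporter, Podofilox 0 by 2-fold, and Dihydrorotenone 2 other ABC genes; no other count moved by over 1.5 times. Replicate numbers 4 to 6 occur only in DMSO, so with the block each compound was compared with DMSO replicates 1 to 3 alone. An effect of replicate number thus cannot be told apart from the loss of those controls. The block ended the calls of Abcc5 with Diphenyleneiodonium Cl (0.16, limma adjusted p = 0.172) and Abcb1a with Clofilium tosylate (0.23, limma adjusted p = 0.163). It put Abcb1a with Podofilox at 0.97. With the block, Abcc5 (-0.20, limma adjusted p = 0.0345) and Abcg2 (-0.22, limma adjusted p = 0.0356) passed with Cardamonin. The numbers did not pair the libraries: over 108 same-numbered pairs the correlation of deviations ran from -0.107 to 0.151 with a median of 0.00799, and 10 of 24 treated libraries were closest to their own number.

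With 1 library left out at a time, changed transporters numbered 2 to 2 with Antimycin A, 0 to 1 with Dihydrorotenone, 0 to 2 with Diphenyleneiodonium Cl, 5 to 6 with Cardamonin, 1 to 3 with BerberineA, 0 to 3 with Clofilium tosylate, 4 to 5 with AEG 3482 and 4 to 4 with Podofilox. Transporters changed 2-fold numbered 0 to 1 with Podofilox, 4 to 4 with Cardamonin and 2 to 2 with AEG 3482. Differing transporters numbered 1 to 2 for Antimycin A against Dihydrorotenone, 6 to 7 for Cardamonin against AEG 3482 and 6 to 7 for Podofilox against Cardamonin. Other ABC genes numbered 10 to 12 with Antimycin A, 1 to 8 with Dihydrorotenone, 6 to 11 with Diphenyleneiodonium Cl, 21 to 23 with Cardamonin, 6 to 9 with BerberineA, 5 to 9 with Clofilium tosylate, 22 to 25 with AEG 3482 and 13 to 17 with Podofilox.

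Precision rests on 3 libraries per compound, since TPM gives no depth, and values near or under 1 TPM, as for Abcb1a outside Cardamonin, are the least certain.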
